A study of Picea abies with 36 samples.

Results

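Hypocotyls of Norway spruce (Picea abies) seedlings, the stem between root and cotyledons, were profiled by RNA sequencing 5 days after a cytokinin was put on them. The contrast set 3 libraries of hypocotyls given 135 mM BAP (6-benzylaminopurine, a synthetic cytokinin) against 3 Mock libraries collected on the same day, 6 of the 36 libraries of the series. The other 30 libraries cover BAP and Mock at 10 and 15 days, and 50 mM IAA (indole-3-acetic acid, an auxin) and the combination BAP+IAA at all 3 times. All seedlings had grown for 2 weeks in a phytotron and got a single local application, in lanolin, to the middle of the hypocotyl. The labels do not state that replicates came from separate plants or pools, nor what the Mock preparation held beside the carrier. P-values therefore measure the spread between libraries, which may be technical.

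Cytokinins are adenine-derived plant hormones. They are sensed by membrane histidine kinases, and the signal passes through phosphotransfer proteins to response regulators in the nucleus, which change transcription. In stems they are known for promoting cell division in the vascular cambium. More widely, they are known for counteracting auxin in organ formation and for delaying senescence. The deposited table lists gene models by identifier, without gene names, so response regulators, cytokinin oxidases or cell cycle genes could not be picked out here, and the tissue could not be checked against marker genes. The response is described below by its size, by the level of the models that moved, by their position on shared sequences and by their later course, with a few models given by identifier.

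The 3 BAP libraries held 12531117, 16106687 and 14795646 reads in gene models, and the 3 Mock libraries 15164948, 13088930 and 17812977. Single libraries detected 39948 to 41323 models, with no difference between the groups beyond their spread (2-sided exact permutation test, p = 0.8, where 3 against 3 cannot go below 0.1). Across genes, log2 CPM (read counts brought to a common library size with TMM factors) of 2 BAP libraries correlated at 0.965 to 0.972 and of 2 Mock libraries at 0.966 to 0.974. Correlations between a BAP and a Mock library were lower, from 0.926 to 0.946. BAP replicate 1 lay nearest to Mock, with correlations of 0.945 to 0.946, against 0.938 to 0.942 for replicate 2 and 0.926 to 0.937 for replicate 3. The median SD of log2 CPM over replicates was 0.25 with BAP and 0.237 with Mock.

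The 5-day libraries were set against the later BAP response, taken from libraries outside the contrast. An axis was drawn from the mean of the 6 Mock libraries of 10 and 15 days, set to 0, to the mean of the 6 BAP libraries of those days, set to 1. Noise in the libraries that drew the axis counts towards 1, so outside libraries lie below 1 even with an equal response. Positions therefore do not measure how complete the response was. The 3 BAP libraries of 5 days lay at 0.519, 0.65 and 0.699 on it, against -0.023, 0.0424 and 0.0231 for the 3 Mock libraries of 5 days. The BAP libraries thus stood apart from Mock without overlap, and replicate 1 was the lowest of them. The IAA libraries of 5 days, which took no part in the axis either, were at 0.707, 0.662 and 0.772, and overlapped with BAP. The BAP+IAA libraries of 5 days were at 0.941, 0.969 and 0.994, above all libraries with a single hormone on that day. Among the BAP libraries of 10 and 15 days, which drew the axis, replicate 1 was also the lowest, at 0.834 and 0.987. BAP replicate 3 was the highest on all 3 days, at 1.03 and 1.15 on days 10 and 15. Whether a replicate number marks a shared effect was not tested.

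**Figure D1:**
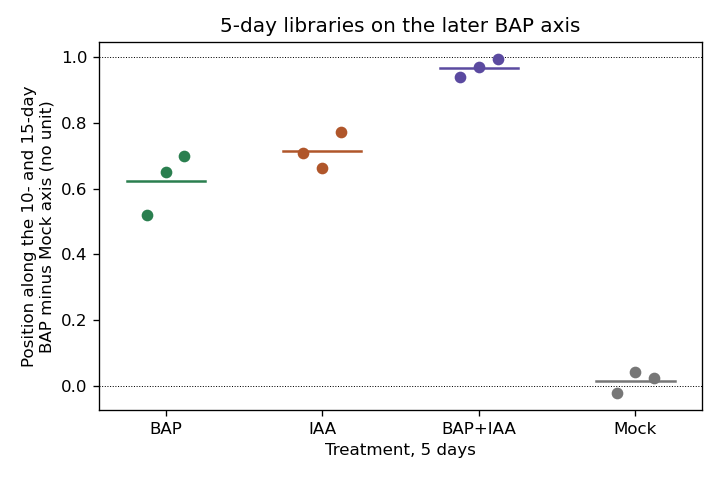
Position of each 5-day library (point) and group mean (line) along the difference of BAP and Mock at 10 and 15 days, where 0 is the later Mock mean and 1 the later BAP mean (no unit). The 3 BAP libraries sit between 0.519 and 0.699, the 3 Mock libraries between -0.023 and 0.0424.

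The comparison of BAP with Mock asked which genes had answered to the cytokinin after 5 days. Of 38239 models tested, 4275 rose (11.2%) and 5344 fell (14%) with BAP (edgeR's quasi-likelihood test, Benjamini-Hochberg adjusted p under 0.05). In bulk tissue, fewer cells of a type and less RNA per cell cannot be told apart, for these and all later values. Rises were mostly small and falls somewhat larger. The median log2 change was 0.68 among the models that rose and -0.90 among those that fell, beside -0.02 over all tested models. Which direction held more models was not stable, since scaling by total counts gave 5502 rises and 4189 falls, and testing all models with a read gave 4678 and 4172.

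In pooled levels, 38.1% of the models that rose did so by less than 1.5-fold and 35.6% by 1.5 to 2-fold. Among those that fell these shares were 28.6% and 25.9%. A change of 2 to 4-fold was seen for 702 rising and 1650 falling models, and one of 4 to 16-fold for 356 and 698. At 16-fold or more the counts were 66 and 82. A test against a change of 2-fold, in place of a test against no change, called 203 models higher (0.531%) and 550 lower (1.44%) (edgeR's glmTreat, adjusted p under 0.05). Without BAP replicate 2 the lower count was 279. Falls past 2-fold outnumbered rises under every alternative tried. A fit of the 6 libraries alone gave 120 higher and 309 lower.

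In single libraries, 6214 models (16.3%) had all 3 BAP libraries above all 3 Mock libraries, and 7405 (19.4%) had all 3 below. Of the models that rose by the test, 91.9% showed no overlap between the groups, and of those that fell, 92.2%.

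**Figure D2:**
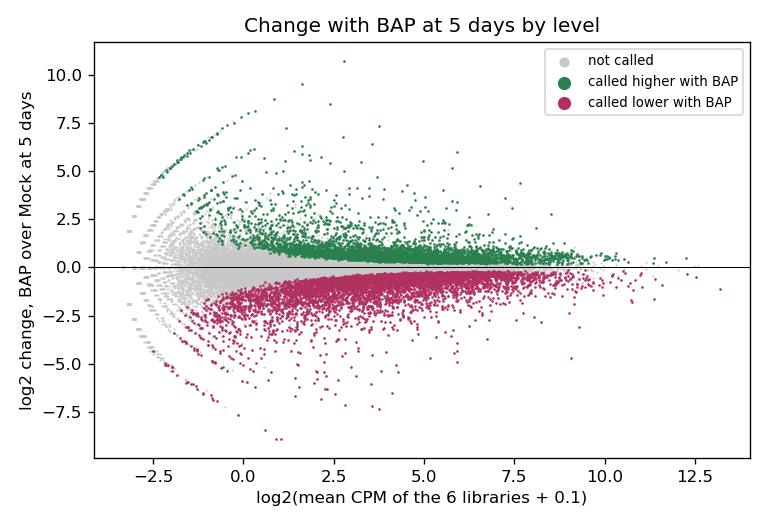
Log2 change with BAP at 5 days (vertical axis) against the mean level of the 6 libraries (log2 CPM, with a small constant added) for 38239 models, each a point. The 4275 models called higher and the 5344 called lower lie at low and at high levels. Models without a read in the 6 libraries, at the left edge, cannot be called. Models at the right edge, the most abundant ones, lie mostly below 0.

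Among models at 1 CPM or more in Mock, those abundant in Mock fell more often than scarce ones. Models were classed by their mean level in the 6 Mock libraries of 10 and 15 days, which are not part of the contrast. Classing by Mock alone leans to falls at high levels. A model that BAP raised to such a level stays in a lower class. Of 66 models at 1000 CPM or more, 8 rose (12.1%) and 41 fell (62.1%) with BAP at 5 days, with a median log2 change of -0.51. Of 1807 models at 100 to 1000 CPM, 353 rose (19.5%) and 648 fell (35.9%), and of 12380 at 10 to 100 CPM, 1855 (15%) and 2734 (22.1%). At 1 to 10 CPM the balance was even, with 1672 rises and 1687 falls among 16927 models. The 7059 models below 1 CPM are not compared by direction, since models this low in Mock can pass the expression filter through a hormone group where they are high. The share called in any direction also grew with level. The lead of falls over rises at 10 to 100 CPM depended on the scaling (2433 rises and 2072 falls by total counts), while that at 1000 CPM or more did not (9 and 30).

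Past 2-fold, falls outnumbered rises in each class from 1 CPM upwards. At 1 to 10 CPM, 79 models were called higher and 210 lower, at 10 to 100 CPM 27 and 267, at 100 to 1000 CPM 2 and 48, and at 1000 CPM or more 0 and 5. Models abundant in Mock that passed this limit were nearly all lower with BAP. Classing by Mock alone leans to this, since a model that BAP raised to a high level stays in a lower class.

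**Figure D3:**
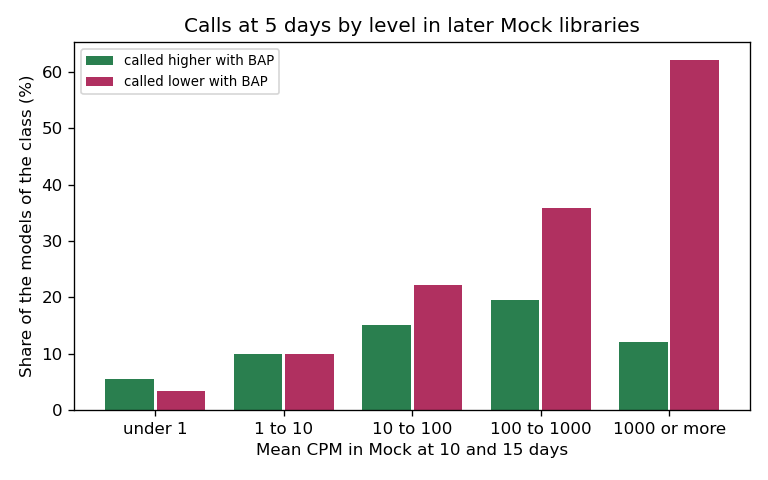
Share of models called higher and called lower with BAP at 5 days (percent of the class) in 5 classes of mean CPM in the Mock libraries of 10 and 15 days. The share called lower goes up with each class, to 62.1% of the 66 models at 1000 CPM or more, where 12.1% were called higher. Models under 1 CPM can pass the filter through a hormone group where they are high, so that class is not read by direction. Classing by Mock alone leans to falls at high levels.

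The 100 most abundant models of the later Mock libraries held 15.1, 13.4 and 13.9% of the reads in the 3 BAP libraries of 5 days, against 17, 16.9 and 18.2% in the 3 Mock libraries. The groups did not overlap, and the 2-sided exact permutation test gave p = 0.1, the smallest possible with 3 against 3. Of these 100 models, 57 fell and 15 rose. They were chosen by their level in Mock alone, which leans to falls and to a smaller share with BAP. At 5 days they held 11.7 ± 0.269% of the reads with IAA and 11.7 ± 0.0798% with BAP+IAA (SD, n = 3 each). The 10 most abundant models of each library took 4.89 ± 0.278% of its reads with BAP and 5.58 ± 0.231% in Mock (SD, n = 3 each).

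The shift of reads between the 2 sets was large and held on later days. The models that rose at 5 days took 28 ± 0.935% of the reads with BAP and 17.5 ± 0.712% in Mock (SD, n = 3 each), and those that fell took 21.4 ± 0.87% with BAP and 33.8 ± 0.5% in Mock. These libraries also chose the sets. In libraries that did not, the rising set held 26.8 ± 1.17% with BAP and 16.6 ± 0.231% in Mock at 10 days, and 25.6 ± 0.461% and 16.1 ± 0.208% at 15 days (SD, n = 3 each). The falling set held 21 ± 0.931% with BAP and 34 ± 0.569% in Mock at 10 days, and 21.2 ± 0.775% and 34.8 ± 0.813% at 15 days (SD, n = 3 each). On all 3 days every BAP library lay above every Mock library for the first set and below for the second. The shift was not particular to BAP. At 5 days the rising set held 29 ± 0.617% with IAA and 29.4 ± 0.487% with BAP+IAA (SD, n = 3 each). The falling set held 20.8 ± 0.576% and 19.7 ± 0.156% (SD, n = 3 each). The Mock libraries of 5 days also chose the sets. The loss was more concentrated than the gain: the 10 models with the largest loss made up 15.9% of all CPM lost by falling models, against 7.41% for the 10 with the largest gain. Much of this gap lay in a single model, MA_10431300g0020, which lost 6910 of the 139299 CPM. The largest gain of a model was 1674 of 89762 CPM.

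The following 4 models are given by identifier. In each direction these are the model with the largest log2 change and the one with the largest change in CPM, among models called at 5 days whose groups did not overlap and that averaged at least 1 CPM (3776 higher and 4594 lower). The largest log2 rise was that of MA_229510g0010, at 8.39, 4.18 and 5.39 CPM in the 3 BAP libraries and without a read in the 3 Mock libraries. Its 263 BAP reads made it at least 87.3-fold higher, with the Mock level set to 3 counts over the group (edgeR adjusted p = 1.1e-06). With BAP it was at 3.45 ± 0.734 CPM (SD, n = 3) on day 10 and 1.34 ± 0.891 CPM (SD, n = 3) on day 15, again with no read in Mock. IAA libraries had no read of it on any day, and the combination had 0.268 ± 0.256 CPM at 5 days (SD, n = 3). Directly against IAA at 5 days, BAP was also higher (edgeR adjusted p = 2.9e-07).

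The largest gain in CPM belonged to MA_8872g0010, an abundant model at 5194, 5250 and 6669 CPM in the BAP libraries and 4012, 3793 and 4285 CPM in the Mock libraries of 5 days. The groups did not overlap, and the log2 change was 0.50 ± 0.097 (SE; edgeR adjusted p = 0.00024). Without BAP replicate 3 it was 0.37. Its mean level was lower on each later day in both groups, at 3320 ± 425 and 2209 ± 77 CPM with BAP at 10 and 15 days, against 2560 ± 288 and 2065 ± 30.7 CPM in Mock (SD, n = 3 each). The log2 change was 0.38 ± 0.097 at 10 days and 0.10 ± 0.097 at 15 days (SE; edgeR adjusted p = 0.0036 and 0.48). The difference between the 15-day and the 5-day change, -0.40 ± 0.14 (SE), did not pass the threshold (edgeR adjusted p = 0.14). With IAA at 5 days the model also rose against Mock, by 0.37 ± 0.097 (SE; edgeR adjusted p = 0.0024). Directly against IAA, BAP did not pass the threshold (log2 difference 0.13 ± 0.097, SE; edgeR adjusted p = 0.31).

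The largest log2 fall was that of MA_959195g0010. It had no read in any BAP library of 5 days, against 6.09, 2.92 and 2.77 CPM in Mock, 177 reads in all. It was thus at least 59.2-fold lower with BAP, with the BAP level set to 3 counts over the group (edgeR adjusted p = 5.3e-05). BAP libraries of 10 and 15 days had no read of it either, while Mock had 3.12 ± 1.41 and 3.36 ± 0.574 CPM (SD, n = 3). At 5 days it was also without a read in the IAA and BAP+IAA libraries.

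The largest loss in CPM was that of MA_10431300g0020, the most abundant model in all 9 Mock libraries. At 5 days it led only 1 of the 3 BAP libraries, and a different model led each of the other two. It was at 7312, 4906 and 5705 CPM in the BAP libraries, against 13660, 11570 and 13420 CPM in the Mock libraries of 5 days. The highest BAP library lay well below the lowest Mock library, and the log2 change was -1.11 ± 0.21 (SE; edgeR adjusted p = 0.00027). Its change was about as large at 10 days, -1.12 ± 0.21, and at 15 days, -1.31 ± 0.21 (SE). The differences to 5 days were -0.01 ± 0.30 and -0.20 ± 0.30 (SE; edgeR adjusted p = 1 and 0.85). The levels with IAA at 5 days were lower than with BAP (log2 difference of BAP to IAA 1.92 ± 0.22, SE; edgeR adjusted p = 7.9e-08). Of the models whose identifiers hold the same number before the g, the one ending in g0010 also fell, to 1081, 677 and 692 CPM with BAP against 2627, 2582 and 2577 CPM in Mock (MA_10431300g0010, log2 change -1.67 ± 0.23, SE; edgeR adjusted p = 5.2e-06). The one ending in g0030 was far less abundant than these and overlapped between the groups, at 36.2, 20.3 and 25.2 CPM with BAP and 29.3, 22.7 and 36.6 CPM in Mock (MA_10431300g0030, edgeR adjusted p = 0.76).

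**Figure D4:**
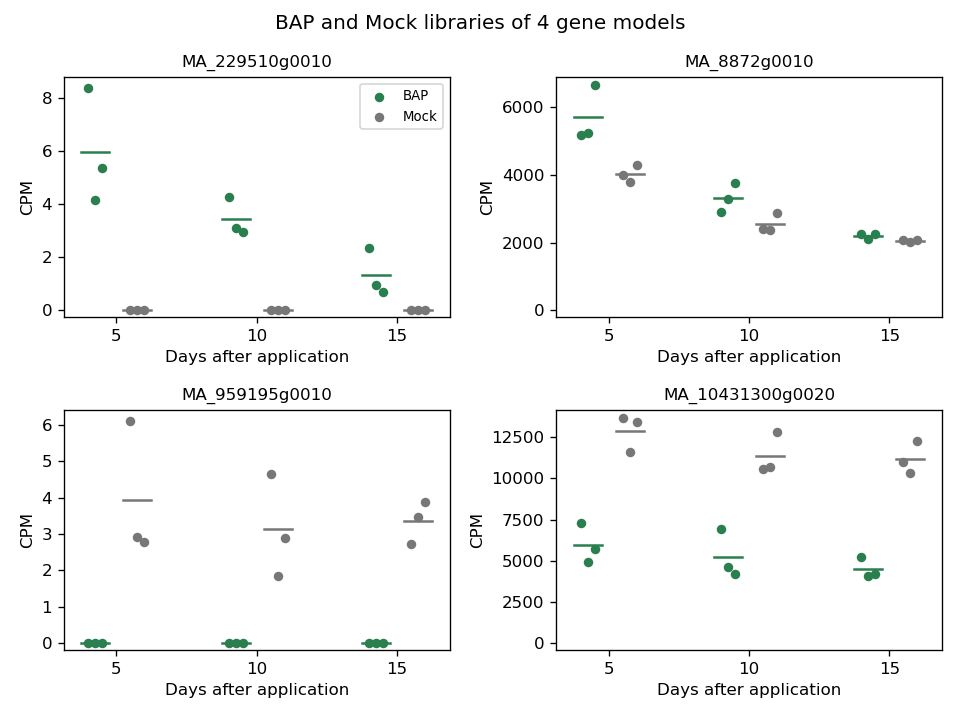
CPM of 4 models in each BAP and Mock library (points) at 5, 10 and 15 days, with group means (lines). MA_229510g0010 has no read in Mock and lower BAP means at 10 and 15 days than at 5 days, MA_959195g0010 has no read with BAP on any day, and MA_10431300g0020 stays below Mock throughout.

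Some models had reads in a single group. In the whole table, 2149 models had reads at 5 days with BAP but not Mock, and 2277 with Mock but not BAP, most of them at very low counts. With at least 3 reads asked for in every library of the group that had them, 40 models were seen in BAP and without a read in Mock, and 25 the other way round. The 40 models had 13 to 263 reads over the 3 BAP libraries, with a median of 22, and the 25 models had 11 to 177 reads over the 3 Mock libraries, also with a median of 22. These sets were chosen for this pattern, so it is a description. Of the 40 models, 36 were tested and 24 called at 5 days. Of the 25, only 13 were tested, and all 13 were called. In the libraries of 10 days, 37 of the 40 had reads in all 3 BAP libraries, and 14 had none in Mock. At 15 days these counts were 34 and 15. Of the 25, 11 had no read with BAP at 10 days and 10 had none at 15 days, while 23 and 22 had reads in all 3 Mock libraries. Complete absence in Mock was thus not kept on later days for most of the 40. In IAA libraries of 5 days, 18 of the 40 had reads in all 3 libraries and 10 had none.

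Models on the same sequence tended to move together. Identifiers that share the number before the g denote models on 1 numbered sequence, and 4592 tested models had such a partner, in 2709 pairs. Of 344 pairs with both members called at 5 days, 121 had both higher, 203 had both lower and 20 had opposite directions, so that 94.2% moved the same way. Of 565 partners of models that rose, 242 also rose (42.8%) and 20 fell (3.54%). Of 836 partners of models that fell, 406 also fell (48.6%) and 20 rose (2.39%). Each pair is counted here from both ends. These shares stand beside 11.2% rising and 14% falling over all tested models. Among the 4592 models with a partner, 486 rose and 699 fell. Partners of models that were not called rose in 7.54% and fell in 10.2% of cases. Whether 2 models on a sequence are neighbouring genes, copies or parts of 1 gene is not told by the identifiers, and pairs on 1 sequence share members.

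The 5-day changes were then followed into the libraries of 10 and 15 days, which share no library with the 5-day contrast. Of the 4275 models that rose at 5 days, 2982 (69.8%) were called higher again at 10 days and 2555 (59.8%) at 15 days, where 14.2% and 15.8% of all tested models were called higher. Of the 5344 that fell, 4056 (75.9%) were called lower again at 10 days and 3860 (72.2%) at 15 days, where 16.4% and 16.6% of all were. Opposite calls were rare, at 6 of the 9619 models at 10 days and 30 at 15 days. Calls on all 3 days were made for 2262 rising (52.9%) and 3463 falling models (64.8%). Models called at 5 days and on neither later day numbered 1000 rising and 891 falling, but only 27 and 51 of these passed the test of a difference between 15 and 5 days. Their median log2 change was 0.64 on day 5, 0.25 on day 10 and 0.19 on day 15 for the rising, and -0.64, -0.24 and -0.18 for the falling models.

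Changes of 16-fold or more were called again more often than those below 1.5-fold. Of 1628 models that rose by less than 1.5-fold, 65.6% were called again at 10 days and 55% at 15 days. Of the 66 models that rose 16-fold or more, 95.5% and 87.9% were. Among falls the shares were 63% and 60.6% below 1.5-fold, and 92.7% and 91.5% at 16-fold or more. The 203 models past 2-fold higher had a median log2 change of 3.12 on day 5, 3.25 on day 10 and 3.17 on day 15. The 550 past 2-fold lower had -2.50, -2.71 and -2.71. Of the 203, 95 were below 1 CPM in the Mock libraries of 10 and 15 days. Such models can pass the expression filter through a hormone group where they are high, on later days too. For large rises, the shares called again and the later medians are therefore a description. The share called again did not go up at every step: of the 1523 models that rose by 1.5 to 2-fold 71% were called again at 10 days, of the 702 that rose by 2 to 4-fold 69.1%. Models that rose by 1.5 to 2-fold had a median log2 change of 0.74 on day 5, 0.60 on day 10 and 0.49 on day 15, and those that rose by 2 to 4-fold 1.24, 1.06 and 0.90. Those that fell by 1.5 to 2-fold kept theirs, at -0.76, -0.76 and -0.75. Sets chosen at 5 days lean to large 5-day values, so a smaller later median does not by itself show a fading response.

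**Figure D5:**
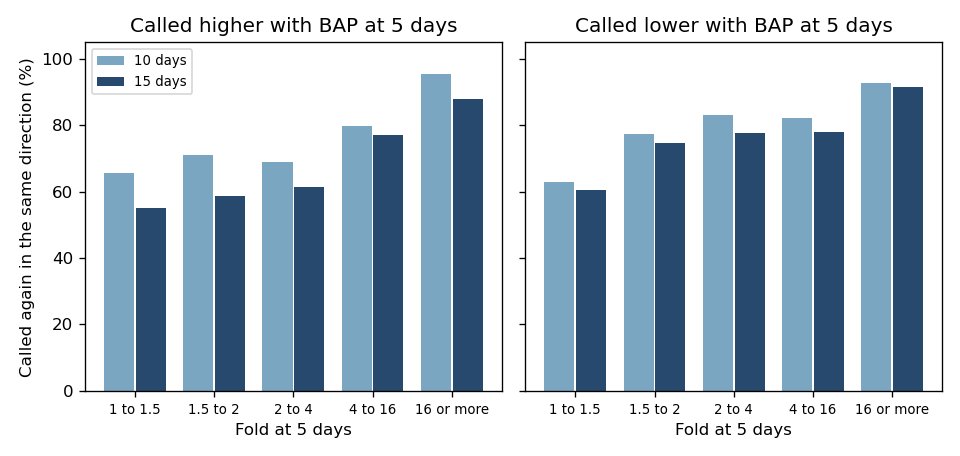
Share of models called at 5 days that were called in the same direction at 10 and 15 days (percent), by fold at 5 days, for models called higher (left) and lower (right). Bars go from 65.6% (10 days) and 55% (15 days) for rises below 1.5-fold to 95.5% and 87.9% for rises of 16-fold or more. Models scarce in Mock can pass the filter through a hormone group where they are high, so bars of large rises are a description.

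Tested directly, the BAP effect at 10 days differed from that at 5 days at 1 model, or 0.00262% of those tested, beside 2647 with an unadjusted p under 0.05 in edgeR. With no difference at any of the 38239 models, a share of about 0.05 would lie under that unadjusted threshold. DESeq2 called 31 models with a higher and 31 with a lower effect at 10 days. The single model was MA_10431585g0010, named after its values were seen. It was higher with BAP at 5 days, at 3.69, 0.872 and 2.7 CPM against 0.335, 0 and 0.809 CPM in Mock, where the lowest BAP library was just above the highest Mock library. At 10 days it was almost gone with BAP, at 0.074, 0.0566 and 0.134 CPM, against 0.618, 0.778 and 2.44 CPM in Mock. At 15 days BAP libraries held 1 read of it in all, against 1.24, 3.08 and 2.5 CPM in Mock. The log2 change was 2.45 ± 0.56 on day 5, -3.86 ± 0.88 on day 10 and -6.27 ± 0.98 on day 15 (SE; edgeR adjusted p = 0.0013, 0.00091 and 5.8e-06). The difference between 10 and 5 days was -6.31 ± 1.03 on the log2 scale (SE; edgeR adjusted p = 0.026). It missed the threshold without Mock replicate 1 (adjusted p = 0.092), without Mock replicate 2 (adjusted p = 0.077) and in a fit of the 12 libraries compared (adjusted p = 0.18), all from edgeR, and in a fit of the 6 libraries of 5 days the rise itself had an edgeR adjusted p = 0.053.

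At 15 days the BAP effect differed from that at 5 days at 675 models (1.77%), with 326 higher (0.853%) and 349 lower (0.913%). DESeq2 called 864 higher and 524 lower. Without BAP replicate 1, and likewise without Mock replicate 3, 193 were higher. Of the 4275 models that rose at 5 days, 19 had a higher and 41 a lower effect at 15 days. Of the 5344 that fell, 199 had a lower effect at 15 days, a larger fall, and 81 a higher one. The other 335 had no call at 5 days, 226 of them with a higher and 109 with a lower effect at 15 days. The 5-day libraries enter both the choice of these sets and the difference.

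Cytokinin and auxin were also set against each other on the same day. Directly tested, 6321 models (16.5%) were higher with BAP than with IAA at 5 days and 6881 (18%) lower. All 4275 models that rose with BAP had a median log2 change against Mock of 0.68 with BAP, 0.64 with IAA and 0.63 with the combination. In the direct test BAP was above IAA at 965 of them and below it at 860. The 5344 models that fell had -0.90 with BAP, -0.80 with IAA and -0.95 with the combination, and BAP was below IAA at 1378 and above it at 1175. The 203 models past 2-fold higher with BAP had a median log2 change against Mock of 3.12 with BAP, 1.23 with IAA and 2.55 with the combination. The 550 past 2-fold lower had -2.50 with BAP, -2.30 with IAA and -2.99 with the combination. These contrasts share the 3 Mock libraries of 5 days. In the direct test, BAP was above IAA at 136 of the 203 and below it at 29, and of the 550 it was below IAA at 171, above it at 95 and not called at 284. The sets were chosen by high or low values in the BAP libraries, which also enter this test.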

How the data were processed

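The deposited values are raw counts of reads for each gene model, which the authors left unnormalised. Trimmomatic, STAR and HTSeq are named, without versions, per the submitters' processing notes. For genome build, gene annotation and strandedness of counting, nothing is given in the sources used here, so overlapping models cannot be told apart and near-identical copies may share reads. Columns carry a collection number from 1 to 3, read here as 5, 10 and 15 days in order. The table held 70736 models, and edgeR's filterByExpr with 12 groups left 38239.

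The analysis used edgeR 4.0.16 in R 4.3.3: TMM scaling, 1 quasi-likelihood model of 12 group means over all 36 libraries (robust, 24 residual degrees of freedom), contrasts adjusted by Benjamini-Hochberg at 0.05, 2-sided, and glmTreat for 2-fold. SEs were derived from the F statistics. CPM use TMM-scaled library sizes. Folds use pooled levels with a floor of 3 counts over a group, which covers counting error only. A floor of 3 counts in 1 library of the contrast was 0.173 to 0.231 CPM. Positions on the later axis are projections of log2 CPM (prior count 2). The 6 libraries of the contrast held 12531117 to 17812977 reads. Models given by identifier had the largest log2 change or the largest CPM difference in each direction, among called models without overlap between the groups and with a mean of at least 1 CPM. Models and sets were chosen with earlier results of these data known. The model was tested on simulated counts for BAP against Mock at 5 days (35566 genes, 200 changed): the share found was 19.4% at a simulated fold of 1.5, 53.7% at 2 and 90.9% at 4, beside 3 false calls. In the data, 25.2% of the tested models were called. The adjusted threshold is stricter with few changes, so these shares and false calls do not carry over to the contrast. Alternatives were RLE factors, total counts, other filters, DESeq2 1.42.0, fits of only the groups compared, a replicate block and leaving out each library of the contrast.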

Additional observations from a re-analysis of the deposited data

Results flagged for a closer look

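The BAP effect on 2 days was compared by a test of the difference itself. Between 10 and 5 days, 1 model had a lower effect at 10 days. This was MA_10431585g0010, with a log2 difference of -6.31 between 10 and 5 days and of -8.72 between 15 and 5 days. Between 15 and 5 days, 326 models had a higher and 349 a lower BAP effect at 15 days.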

How the results depend on the processing

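In all, 25 results were recomputed under 11 to 14 alternatives each. Total counts gave a median log2 change of all tested models of 0.06, against -0.02 with TMM. Rises then outnumbered falls at 5 days, with 5502 and 4189 models, as they did without a filter on low counts, with 4678 and 4172. In the other alternatives falls outnumbered rises. No log2 change or difference of a model given by identifier changed sign. Fitting only the groups compared gave 3553 models lower with BAP at 5 days, 3375 of them among the 5344, with 120 higher and 309 lower past 2-fold, 3 with a lower effect at 10 than at 5 days, and 222 with a lower effect at 15 days. DESeq2 gave 264 lower past 2-fold, 31 higher and 31 lower for 10 against 5 days, and 864 and 524 for 15 against 5 days. It gave no adjusted p for MA_10431585g0010 at 10 against 5 days. Total counts and no filter each gave 3 lower for 10 against 5 days. Leaving out 1 library gave 0 to 1 higher and 0 to 2 lower for 10 against 5 days, 193 to 324 higher and 234 to 383 lower for 15 against 5 days, 143 to 226 higher and 279 to 522 lower past 2-fold, and 3311 to 4030 higher and 4288 to 4810 lower at 5 days. The cause of these shifts was not tested.

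Replicate numbers are shared between the groups, and the main model did not take them as pairs. Deviations of same-numbered BAP and Mock libraries of 5 days correlated at 0.138, 0.00591 and 0.139. Those of unlike-numbered libraries correlated at -0.21 to 0.0981. The same-numbered values of replicates 1 and 3 were thus the highest. Whether libraries of a replicate number share an effect was not tested. With a replicate block over all libraries, BAP raised 4406 models and lowered 5574 on day 5, against 4275 and 5344 without it. Here 2 had a higher and 5 a lower effect on day 10 than on day 5. With a replicate block in only the groups compared, these were 3498 and 3756, and 1 and 6. Without the block, the same fit gave 3217 raised and 3553 lowered on day 5. In the simulation, at the depth and replicate number of these libraries, 19.4% of changes of 1.5-fold were found. With only 200 of 35566 genes changed, its adjusted threshold was stricter. This share therefore does not carry over to the contrast.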
